A study of Mus musculus with 15 samples.

Results

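The Myc, Max and Mxd family was followed across mouse mammary tumors and mammary glands through 9 genes, Myc, Mycn, Mycl, Max, Mxd1, Mxd3, Mxd4, Mxi1 and Mnt. They were picked by gene symbol, with no use of a measured value, from the 51826 genes of the RNA-seq tables. The tissue came from 13 mice, all labelled FVB, and gave 15 libraries. Trim24COE mice carry a piggyBac transgene in which a floxed stop cassette precedes a FLAG-tagged mouse Trim24 cDNA, and MMTV-Cre, which is active in mammary epithelial cells, removes the stop. Their tumors fell by label into metaplastic carcinosarcomas, of mice 64, 567 and 897 (n = 3), and carcinomas, of mice 89, 273_5 and 3956 (n = 3). The study's supplement lists tumors 89 and 3956 as carcinosarcoma by its first pathologist and as carcinoma by its second. For tumor 89 it also lists a call based on RNA-seq, carcinoma. The controls were undiseased mammary glands of 4 age-matched mice that carry MMTV-Cre alone (mice 133, 392, 417_3 and 517_3). The last group, called non-TRIM24 tumors, held 3 carcinomas (mice 219, FVB001 and FVB002) that arose spontaneously in mice of unknown genotype, which per the study's text were FVB or FVB/129. Gland 133 and carcinoma 3956 each have a repeat library in a second batch. That batch also holds all non-TRIM24 tumors, so these tumors can be set against the other groups only through those 2 repeat libraries. The batches match the 2 sets in which the values were deposited. Whether a repeat library came from the same RNA as the first was not established here.

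MYC, N-MYC and L-MYC, the proteins of Myc, Mycn and Mycl, are transcription factors that bind DNA as dimers with MAX, best at the E-box CACGTG, and raise the transcription of genes for ribosome production, nucleotide synthesis and cell cycle entry. MXD1, MXD3, MXD4, MXI1 and MNT form dimers with the same MAX, bind the same sites and bring SIN3 corepressors and histone deacetylases, so that they act against MYC. Most Mxd genes are known to be switched on as cells leave the cycle and differentiate, while Mxd3 is known for expression in S phase. In the mammary gland, Myc is known to rise with growth of the epithelium in pregnancy and to cause tumors when it is forced on.

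Promoter windows from RefSeq on build GRCm38.p6, which run from 250 bases before to 50 after a transcription start, were matched by symbol for 8 of the 9 members, all but Myc. Those of Mycl and Mxd3 are shown because these were the 2 members that passed the test in any comparison. Those of Max, Mnt and Mxd4 are shown because each holds 1 copy of the E-box, printed in capitals. All are written 5′ to 3′ on the strand of the gene.
Mycl, chr4:122995681-122995980, plus strand: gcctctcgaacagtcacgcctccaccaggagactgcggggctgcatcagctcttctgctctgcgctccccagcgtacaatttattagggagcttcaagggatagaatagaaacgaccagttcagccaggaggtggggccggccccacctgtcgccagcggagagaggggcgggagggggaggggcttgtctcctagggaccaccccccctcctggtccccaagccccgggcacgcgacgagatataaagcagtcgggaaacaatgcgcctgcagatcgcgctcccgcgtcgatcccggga
Mxd3, chr13:55329682-55329981, minus strand: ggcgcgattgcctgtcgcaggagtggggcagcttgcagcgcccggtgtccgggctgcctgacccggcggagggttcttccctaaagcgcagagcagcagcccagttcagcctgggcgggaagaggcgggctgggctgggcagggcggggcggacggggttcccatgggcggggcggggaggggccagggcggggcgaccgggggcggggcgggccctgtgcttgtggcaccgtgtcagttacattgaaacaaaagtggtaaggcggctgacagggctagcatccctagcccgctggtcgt
Max, chr12:76962199-76962498, minus strand: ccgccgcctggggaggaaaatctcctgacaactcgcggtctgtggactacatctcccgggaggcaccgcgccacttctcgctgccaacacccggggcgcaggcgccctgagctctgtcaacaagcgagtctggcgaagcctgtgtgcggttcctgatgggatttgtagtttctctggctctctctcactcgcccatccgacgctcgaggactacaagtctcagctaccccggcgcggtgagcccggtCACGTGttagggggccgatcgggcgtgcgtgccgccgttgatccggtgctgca
Mnt, chr11:74830674-74830973, plus strand: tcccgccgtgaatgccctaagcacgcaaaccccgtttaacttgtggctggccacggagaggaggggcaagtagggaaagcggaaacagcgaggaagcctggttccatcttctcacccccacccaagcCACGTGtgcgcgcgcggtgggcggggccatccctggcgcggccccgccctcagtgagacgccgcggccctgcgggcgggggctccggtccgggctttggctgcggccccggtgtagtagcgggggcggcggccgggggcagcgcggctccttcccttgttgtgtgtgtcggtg
Mxd4, chr5:34187661-34187960, minus strand: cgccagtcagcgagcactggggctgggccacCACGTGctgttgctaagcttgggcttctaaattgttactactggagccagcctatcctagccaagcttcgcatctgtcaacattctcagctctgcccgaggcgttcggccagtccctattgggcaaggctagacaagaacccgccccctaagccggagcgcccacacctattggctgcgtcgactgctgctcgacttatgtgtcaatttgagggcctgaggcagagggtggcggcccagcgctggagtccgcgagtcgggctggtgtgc
The search used the letters CACGTG, which read the same on both strands. The E-box began 3 bases before the start of Max, 123 bases before that of Mnt and 219 bases before that of Mxd4. Thus 3 of the 8 members with a window held it, against 8.09% of the 27025 genes in the RefSeq table and 7.15% of its 32851 windows. The windows of the members held 56 to 76.7% G and C, against a median of 52.7% over all windows. These shares are therefore not matched for base content. In Mycl, Mycn, Mxd1, Mxd3 and the 3 windows of Mxi1 these letters were not found. A match of this kind is a run of letters, and binding was not measured in these data.

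The values are TPM, a relative transcript abundance that scales reads by gene length so that levels of different genes can be set side by side. They add up to the same fixed total in every library and so keep no read depth, which leaves counting error out of reach. Trim24 itself, whose reads from the transgene and the native gene share the coding sequence, lay at 10.6 to 24.1 TPM in the Trim24COE tumors, 14.5 to 22.4 in the glands and 5.34 to 10.04 in the non-TRIM24 tumors. Between the Trim24COE tumors and the glands no difference in Trim24 RNA was detected here (log2 fold change -0.24, SE 0.26, adjusted p = 0.557, limma). The study reports higher Trim24 in Trim24COE tumors than in MMTV-Cre glands by qRT-PCR, and states that its RNA-seq had predicted this. That reading of the RNA-seq differs from the result here. The study also reports overexpressed TRIM24 and FLAG protein by immunostaining. The glands fell into pairs by tissue content. The summed TPM of 10 adipocyte markers was 25869.5 in gland 133 and 38555 in gland 392, against 1791 in gland 417_3 and 1979 in gland 517_3, and that of 8 epithelial markers ran the other way, at 923 and 1441 against 5599 and 5861. Adipocyte sums in the Trim24COE tumors were 127 to 1334, and in the non-TRIM24 tumors 181, 27774 and 54759.8. Every Trim24COE tumor lay below every gland in this sum, so fits with adipocyte markers as a covariate rest partly on extrapolation. In tissue of mixed cells, fewer cells of a type and less RNA per cell cannot be told apart.

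Differences between groups are log2 fold changes of TPM + 1 from limma, fitted over the genes that reached 1 TPM in enough libraries to fill the smaller group, with Benjamini-Hochberg adjustment over those genes and a threshold of 0.05. Overlap between groups is read from the TPM of first libraries with no adjustment for batch. Overlap with the non-TRIM24 tumors therefore mixes group with batch. Of the 9 members, 8 passed the filter in every comparison and Mycn passed in none. By median TPM over the 13 mice the order was Myc (65.7), Max (65.0), Mxd4 (56.7), Mxi1 (15.5), Mxd1 (10.4), Mnt (7.28), Mxd3 (3.92), Mycl (1.82) and Mycn (0.48). Neighbors in this order were not separated by their spread, since the ranges over mice overlapped for every adjacent pair. Mycl covered the widest range, 46.7-fold between its lowest and highest mouse, and Mxd4 the narrowest, 2.39-fold.

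**Figure D1:**
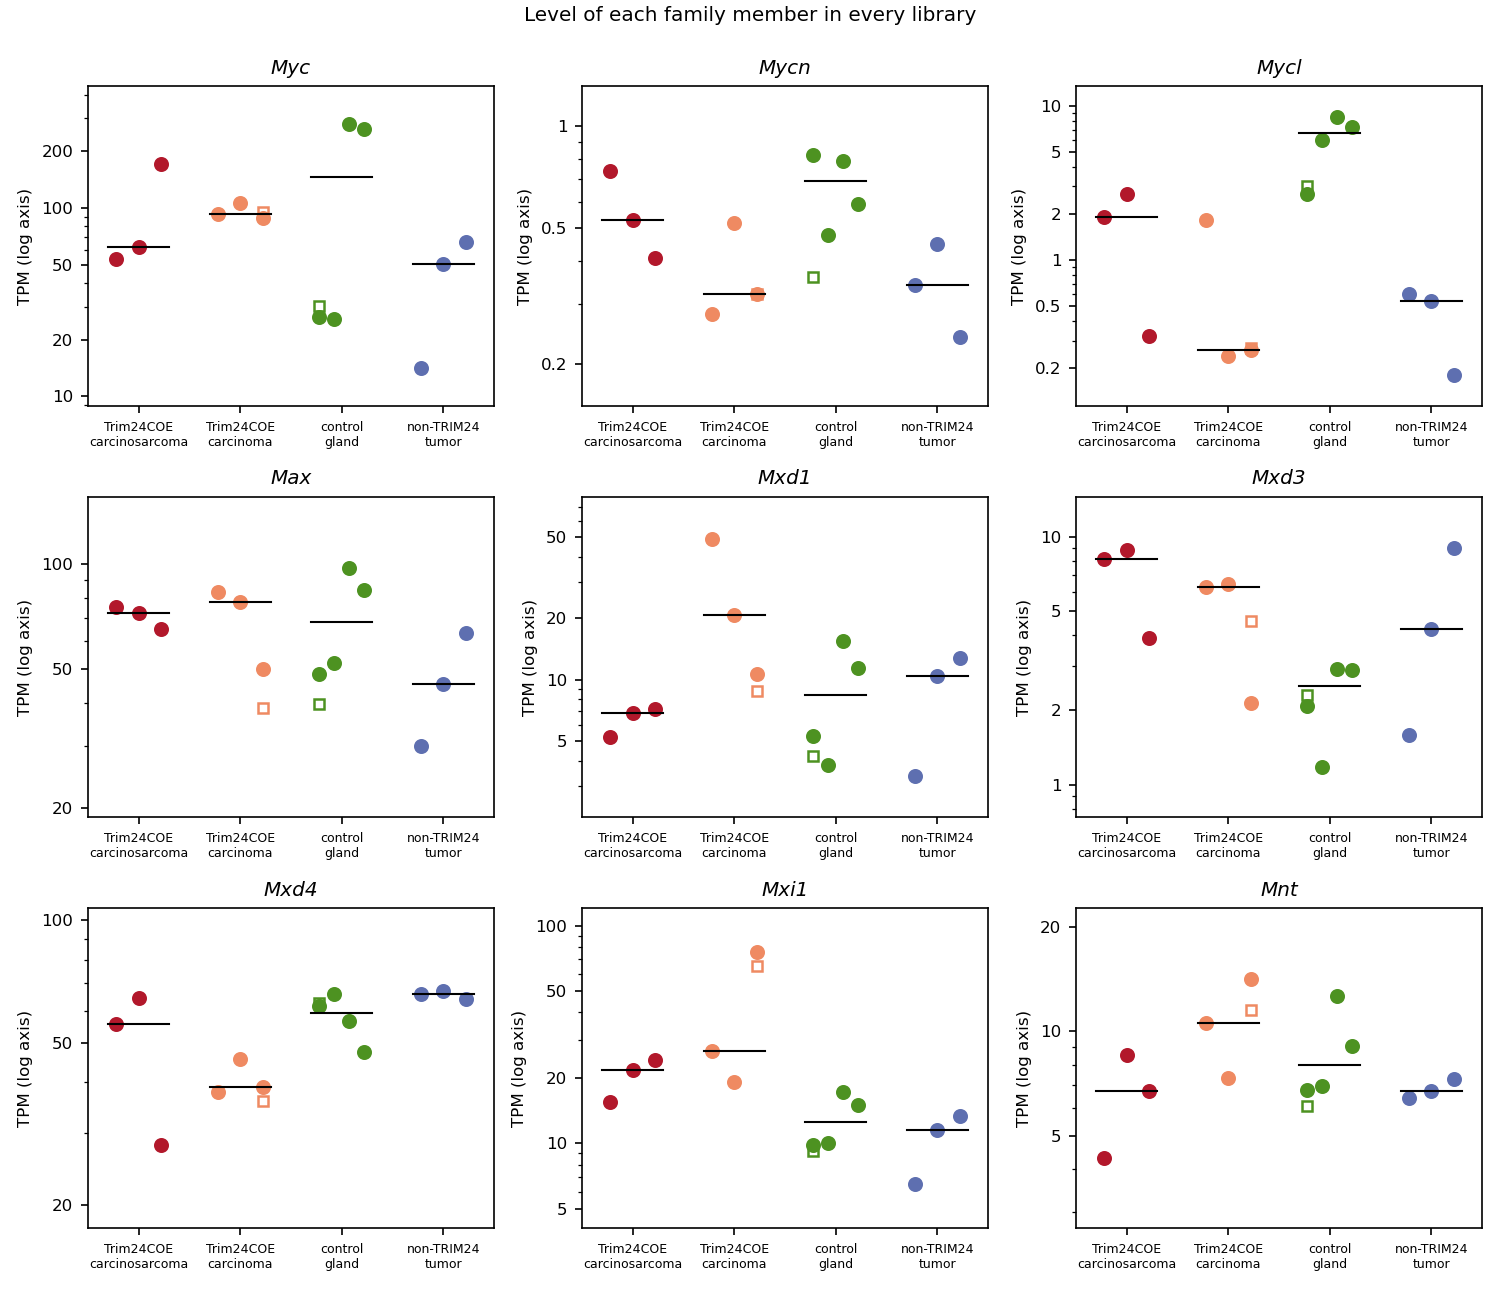
TPM of each family member on a log axis, one point per library, for the 4 groups; filled circles are the first library of a mouse, open squares the repeats of gland 133 and carcinoma 3956, and bars the group medians. Myc in the control glands splits into a pair at 278 and 264 TPM and a pair at 26.3 and 25.6, and Mycl lies at or above 2.69 TPM in every gland and at or below 2.69 in every tumor.

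Myc, the main activator of the family in this tissue, had no single level in the control glands. It was at 26.3 TPM in gland 133 and 25.6 in gland 392, but at 278 in gland 417_3 and 264 in gland 517_3. The Trim24COE carcinomas were close together, at 93.4, 107 and 88.8 TPM. The metaplastic carcinosarcomas were at 53.6, 62.4 and 172, and the non-TRIM24 tumors at 65.7, 14.2 and 50.4. Every Trim24COE tumor therefore lay above the lower pair of glands and below the upper pair. Between the 6 Trim24COE tumors and the 4 glands the log2 fold change was 0.08 (SE 0.70, adjusted p = 0.955). Taken against the 2 glands poor in adipocyte markers it was -1.59, and against the 2 rich in them 1.75. These pairs were formed after the values had been seen and separate Myc as they separate fat, so no test is read from them. The non-TRIM24 tumors and the glands differed by -1.30 (SE 0.86, adjusted p = 0.415), also within the spread of the glands. With the adipocyte markers as a covariate the value for Myc in Trim24COE tumors against glands was -1.54 (adjusted p = 0.153, limma). In the same fit for the metaplastic carcinosarcomas alone it was -2.65 and passed the threshold (adjusted p = 0.0119), and for the carcinomas alone it was -1.28 (adjusted p = 0.134). Adipocyte sums in the carcinosarcomas, 174 to 236 TPM, lay below those of every gland. The slope of the covariate thus rests largely on the split of the glands, so no test is read from these fits either. The part of epithelial content in the Myc values was not tested.

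**Figure D2:**
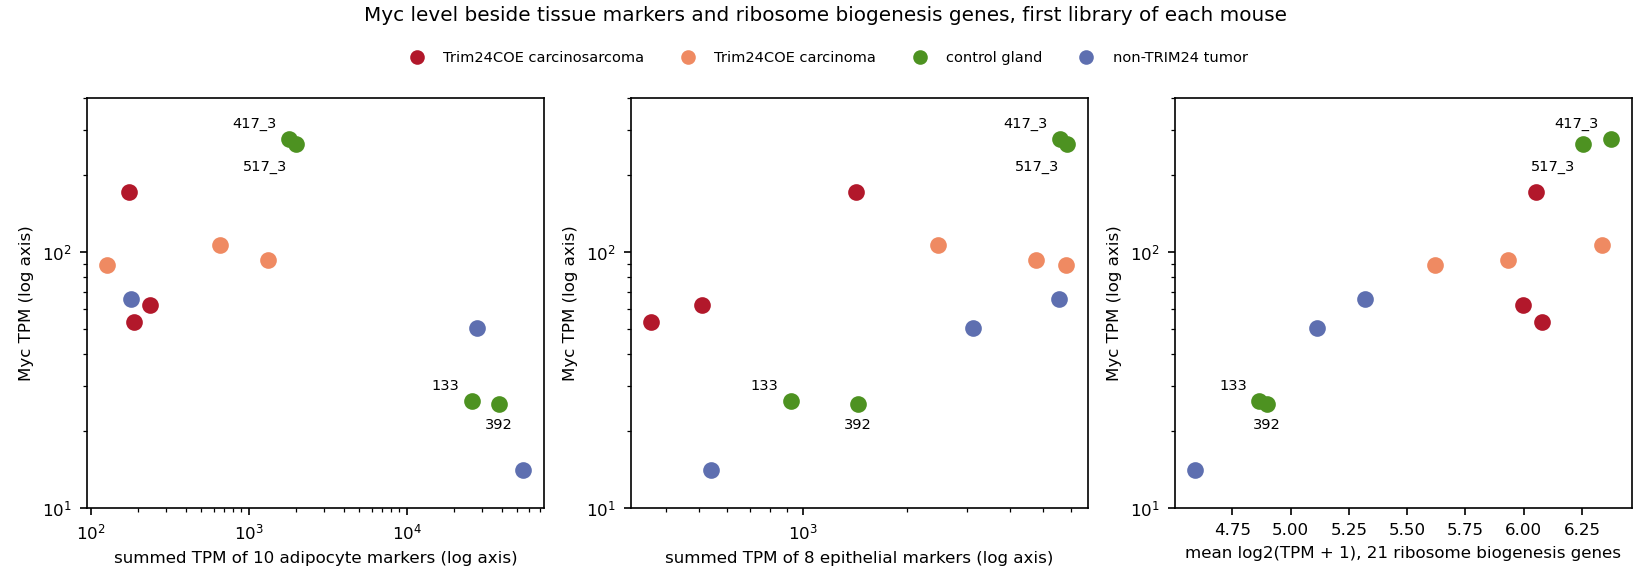
Myc TPM (log axis) against the summed TPM of 10 adipocyte markers, the summed TPM of 8 epithelial markers and the mean log2(TPM + 1) of 21 ribosome biogenesis genes, one point per mouse, with the control glands labelled by mouse. The 2 glands with Myc at 264 and 278 TPM have adipocyte sums of 1979 and 1791 and the 2 with Myc at 26.3 and 25.6 TPM have sums of 25869.5 and 38555, and ribosome biogenesis genes are high where Myc is high among the glands.

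Mycl, which encodes the L-MYC activator, was lower in tumors than in glands. It measured 2.69, 5.97, 8.40 and 7.34 TPM in glands 133, 392, 417_3 and 517_3. The metaplastic carcinosarcomas had 1.89, 2.69 and 0.32 TPM and the Trim24COE carcinomas 1.82, 0.24 and 0.26. In the non-TRIM24 tumors it was at 0.18, 0.60 and 0.54. Glands and tumors thus touched at a single value, 2.69 TPM, shared by gland 133 and carcinosarcoma 567, and otherwise did not overlap. Mycl fell by 1.75 on the log2 scale in the 6 Trim24COE tumors (SE 0.41, adjusted p = 0.0159) and was the single member called there, beside 17.1% of all genes tested. The call held in all 10 fits that left out 1 mouse, with adjusted p from 0.0121 to 0.0487, and with the adipocyte markers as a covariate (log2 fold change -2.09, adjusted p = 0.0467). The fit with the covariate can say little on fat, since adipocyte sums did not overlap between these tumors and the glands. The call was lost without the 2 glands poor in adipocyte markers (-1.35, adjusted p = 0.103). Mycl was under 1 TPM in carcinosarcoma 897 and in carcinomas 273_5 and 3956, and it passed the filter through the glands.

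Split by class, the values for Mycl against the glands were -1.47 (SE 0.47, adjusted p = 0.0542) in the metaplastic carcinosarcomas and -2.03 (SE 0.46, adjusted p = 0.0538) in the carcinomas, both short of the threshold. The carcinomas did not overlap with the glands, and the exact permutation test gave p = 0.0571, the smallest that 3 against 4 mice allow. In the non-TRIM24 tumors Mycl fell by 2.27 on the log2 scale against the glands, in a limma fit with batch as a term (SE 0.45, adjusted p = 0.0407), again as the only member called, beside 0.709% of all genes. It was also the 1 of 8 members without overlap there, beside 31.6% of all genes, in TPM not adjusted for batch. That call is less firm, since it was lost in 6 of 7 fits that left out 1 mouse. It was also lost with no filter and with a pseudocount of 0.1 TPM. The non-TRIM24 tumors were all under 1 TPM, so Mycl passed the filter of this fit through the other groups. These comparisons share the same 4 glands. Between the metaplastic carcinosarcomas and the non-TRIM24 tumors the difference in Mycl was 0.79 (SE 0.49, adjusted p = 0.334), within the spread of the mice.

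Cell type markers also differed between the groups and followed Mycl only in part. The summed TPM of 6 lymphocyte markers was 17.4 to 66.1 in the glands, 10.2 to 31.2 in the metaplastic carcinosarcomas, 2.0 to 10.3 in the Trim24COE carcinomas and 5.8 to 63.6 in the non-TRIM24 tumors. Tumor FVB002, with 63.6 for the lymphocyte sum, had Mycl at 0.54 TPM. Endothelial markers summed to 158 to 289 TPM in the glands, to 50.2 to 205 in the Trim24COE tumors and to 57.1 to 177 in the non-TRIM24 tumors. Their part in the lower Mycl was not tested.

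Mycn, the N-MYC gene, was at 0.24 to 0.82 TPM in all 13 mice and was not tested. The repeat library of gland 133 gave 0.36 TPM where the first gave 0.82, a difference as wide as most of that between mice, so no order of the groups is read from Mycn.

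Max, the partner that activators and repressors share, was steady across groups. It stood at 48.4, 52.0, 97.5 and 84.5 TPM in the glands, in the order 133, 392, 417_3 and 517_3. In the metaplastic carcinosarcomas it was at 75.3, 72.6 and 65.0, in the Trim24COE carcinomas at 82.97, 77.8 and 49.9, and in the non-TRIM24 tumors at 63.5, 30.0 and 45.2. The range of the glands enclosed that of the Trim24COE tumors, and Max passed the threshold in none of the 7 comparisons. It was again the pair of glands poor in fat that stood highest. The metaplastic carcinosarcomas lay above all non-TRIM24 tumors, as they did for Mxi1, in a comparison where 42.5% of all genes did not overlap and 4.76% were called by limma. No member was called there, and 0 of the 8 had an unadjusted p under 0.05, beside 4088 of the 16775 genes tested. The gap for Max, 65.0 against 63.5 TPM, lay across batches. In the repeats Max was 0.82 times the first library in gland 133 and 0.77 times in carcinoma 3956, a wider step.

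Mxd1, a repressor known for its rise as myeloid cells and keratinocytes differentiate, separated the tumor classes as labelled. The class of tumors 89 and 3956 differed between the study's pathologists. The Trim24COE carcinomas had 49.1 TPM in mouse 89, 20.8 in 273_5 and 10.7 in 3956. The metaplastic carcinosarcomas had 5.25, 6.86 and 7.21. Glands 133 and 392 were at 5.30 and 3.82 and glands 417_3 and 517_3 at 15.4 and 11.4, and the non-TRIM24 tumors at 12.7, 3.38 and 10.4. Each carcinoma was above each carcinosarcoma, while the glands spanned the gap between the classes. The log2 difference of carcinosarcomas minus carcinomas was -1.66 (SE 0.52), the adjusted p was 0.231 by limma, and the exact permutation test over 3 against 3 mice gave p = 0.1, its smallest value. Mxd1 was the 1 member without overlap between the classes and the 1 member with an unadjusted p under 0.05. Among all 14193 genes tested 21.8% did not overlap, 2126 had an unadjusted p under 0.05 and 0.698% were called, so a separation of this kind was common. Against the glands the carcinomas were higher by 1.40 (SE 0.61, adjusted p = 0.232). Neutrophil markers stood in the same order in the carcinomas, with a summed TPM of 2050, 532 and 94.2, against 227 to 295 in the carcinosarcomas and 6.5 to 12.6 in the glands. Carcinoma 3956 lay below the carcinosarcomas for this sum, so it did not separate the classes. Epithelial markers did, with a summed TPM of 4769, 2470 and 5816 in carcinomas 89, 273_5 and 3956 against 363 to 1423 in the carcinosarcomas. Within the carcinomas they did not follow Mxd1, since carcinoma 3956 had the highest epithelial sum and the lowest Mxd1. Among the glands the epithelial sum was higher where Mxd1 was higher, at 5599 and 5861 in glands 417_3 and 517_3 against 923 and 1441 in glands 133 and 392. It stood at 5560, 539.96 and 3118 in non-TRIM24 tumors 219, FVB001 and FVB002. The part of either cell type in the Mxd1 level was not tested.

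Mxi1, a repressor that also binds SIN3 corepressors, had its highest value in 1 tumor. Carcinoma 3956 was at 75.3 TPM, and its repeat library at 65.4. The other carcinomas, 89 and 273_5, had 26.5 and 19.1 TPM. The metaplastic carcinosarcomas had 15.5, 21.7 and 24.1, the glands 9.81, 10.1, 17.3 and 14.97 and the non-TRIM24 tumors 13.4, 6.52 and 11.5. All Trim24COE carcinomas were above all glands and above all non-TRIM24 tumors, and the carcinosarcomas overlapped with gland 417_3. The log2 fold change was 1.35 (SE 0.48, adjusted p = 0.155) for carcinomas against glands, and 0.78 (adjusted p = 0.356) without carcinoma 3956. It was 0.99 (SE 0.39, adjusted p = 0.106) for all Trim24COE tumors against glands, 0.63 (SE 0.30, adjusted p = 0.170) for metaplastic carcinosarcomas against glands and 1.53 (SE 0.45, adjusted p = 0.178) for carcinomas against non-TRIM24 tumors. None of these passed the threshold. No member was called between the carcinomas and the glands, beside 3.5% of all genes, nor between the carcinomas and the non-TRIM24 tumors, beside 0.0298%. By unadjusted p under 0.05 in limma, 3 of the 8 passed in the first of these comparisons, beside 3328 of all 15479 genes tested, and 2 in the second, beside 2953 of 16775.

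Mxd3, the member known for S phase expression, was the repressor that passed the test. The metaplastic carcinosarcomas had 8.13, 8.86 and 3.92 TPM, and the glands 2.07, 1.18, 2.93 and 2.91. All carcinosarcomas were above all glands. Mxd3 rose by a log2 fold change of 1.26 (SE 0.36, adjusted p = 0.0406), as the 1 member called of 8, beside 23% of all genes. It was also the only member without overlap, beside 37% of all genes. At a share of the background this large, 1 called member is no result about the family. Leaving out 1 mouse ended the call in 6 of 7 fits (adjusted p from 0.0365 to 0.162), and with the adipocyte covariate the log2 fold change was 0.81 (adjusted p = 0.204). The Trim24COE carcinomas had 6.28, 6.42 and 2.14 TPM and overlapped with the glands through mouse 3956, whose repeat library gave 4.55 TPM, 2.13 times the first. Over all 6 Trim24COE tumors the log2 fold change was 1.03 (SE 0.36, adjusted p = 0.0682). Among the non-TRIM24 tumors, mouse 219 had the highest Mxd3 of all 13 mice, 9.04 TPM, and FVB001 and FVB002 had 1.59 and 4.25.

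Mxd4 was the most abundant repressor in every group median and the steadiest member. It measured 61.6, 65.9, 56.7 and 47.5 TPM in the glands and 64.3, 66.0 and 67.0 in the non-TRIM24 tumors. The Trim24COE carcinomas were lower, at 37.8, 45.7 and 39.0, and the metaplastic carcinosarcomas were split, at 55.6 and 64.4 in mice 64 and 567 and 28.0 in mouse 897. The carcinomas did not overlap with the glands or with the non-TRIM24 tumors, but their log2 fold changes, -0.49 against glands (SE 0.23, adjusted p = 0.273) and -0.73 against non-TRIM24 tumors (SE 0.29, adjusted p = 0.236), missed the threshold. In the first of these comparisons 3 of the 8 members, Mycl, Mxd4 and Mxi1, showed no overlap, beside 21.4% of all genes. In the second it was 4 of 8, Myc, Mxi1, Mnt and Mxd4, beside 36.4%. The second comparison sets different batches side by side. Its gap for Mnt was 7.36 against 7.28 TPM. The repeats of Mnt moved further, to 0.90 and 0.81 times the first libraries of gland 133 and carcinoma 3956. Mnt, a repressor expressed in most cells whatever their growth state, lay between 4.32 and 14.2 TPM throughout. Its highest value was in carcinoma 3956 and its lowest in carcinosarcoma 64, and it passed the threshold in no comparison.

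**Figure D3:**
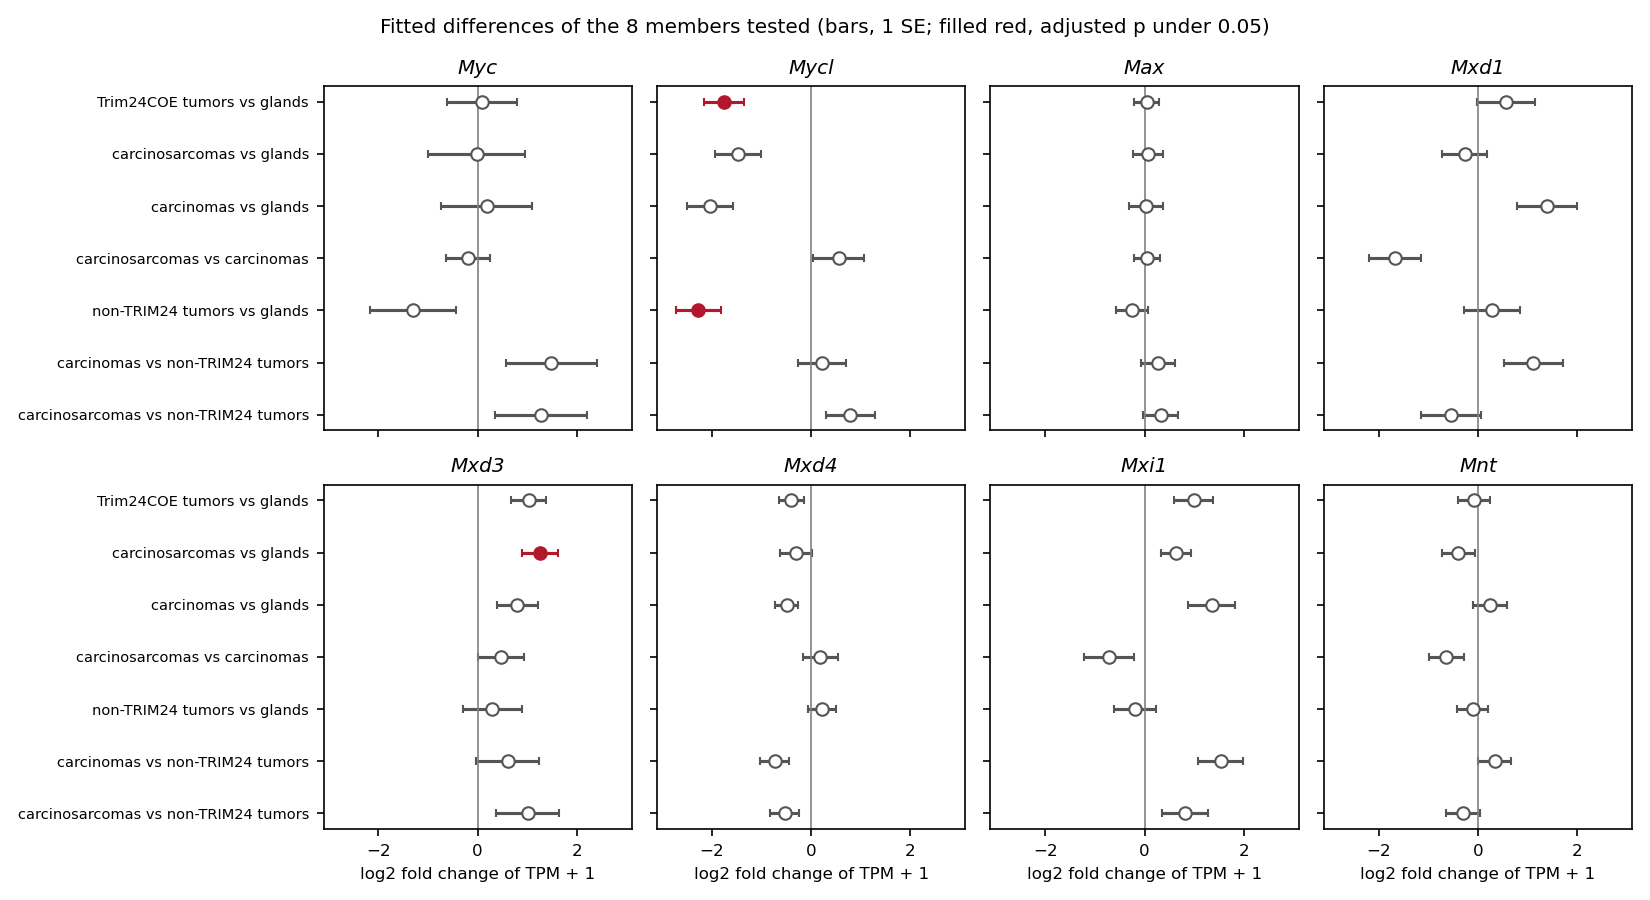
Log2 fold changes of TPM + 1 of the 8 members tested, by comparison, with bars of 1 SE; filled red points have an adjusted p under 0.05 in limma. The red points are Mycl in Trim24COE tumors and in non-TRIM24 tumors against glands, and Mxd3 in metaplastic carcinosarcomas against glands.

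The balance of the family followed Myc. Summed over Myc, Mycn and Mycl, the activators reached 287 and 272 TPM in glands 417_3 and 517_3 and 173 in carcinosarcoma 897, and 15.1 to 107 in the other mice. Summed over the 5 repressors, the level stayed between 70.0 TPM in carcinosarcoma 897 and 141 in carcinoma 3956. The ratio of the activator sum to the repressor sum was 0.35 and 0.36 in glands 133 and 392 and 2.73 and 3.17 in glands 417_3 and 517_3. It was 0.63, 0.59 and 2.47 in the carcinosarcomas, 0.73, 1.08 and 0.63 in the carcinomas and 0.62, 0.18 and 0.51 in the non-TRIM24 tumors. Carcinosarcoma 897 combined the highest Myc of any tumor with the lowest Mxd4, and the range of the glands held the ratio of every Trim24COE tumor. Among the repressors the makeup changed more than the sum. Mxd4 made up 72.0% and 74.9% of the repressor sum in glands 133 and 392, 54.1% and 55.3% in glands 417_3 and 517_3, 62.6%, 58.3% and 40.1% in the carcinosarcomas and 29.0%, 46.0% and 27.6% in the carcinomas. Mxd1 held 37.7% of the sum in carcinoma 89, and Mxi1 held 53.3% in carcinoma 3956. The ratios and shares are descriptions and were not tested.

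**Figure D4:**
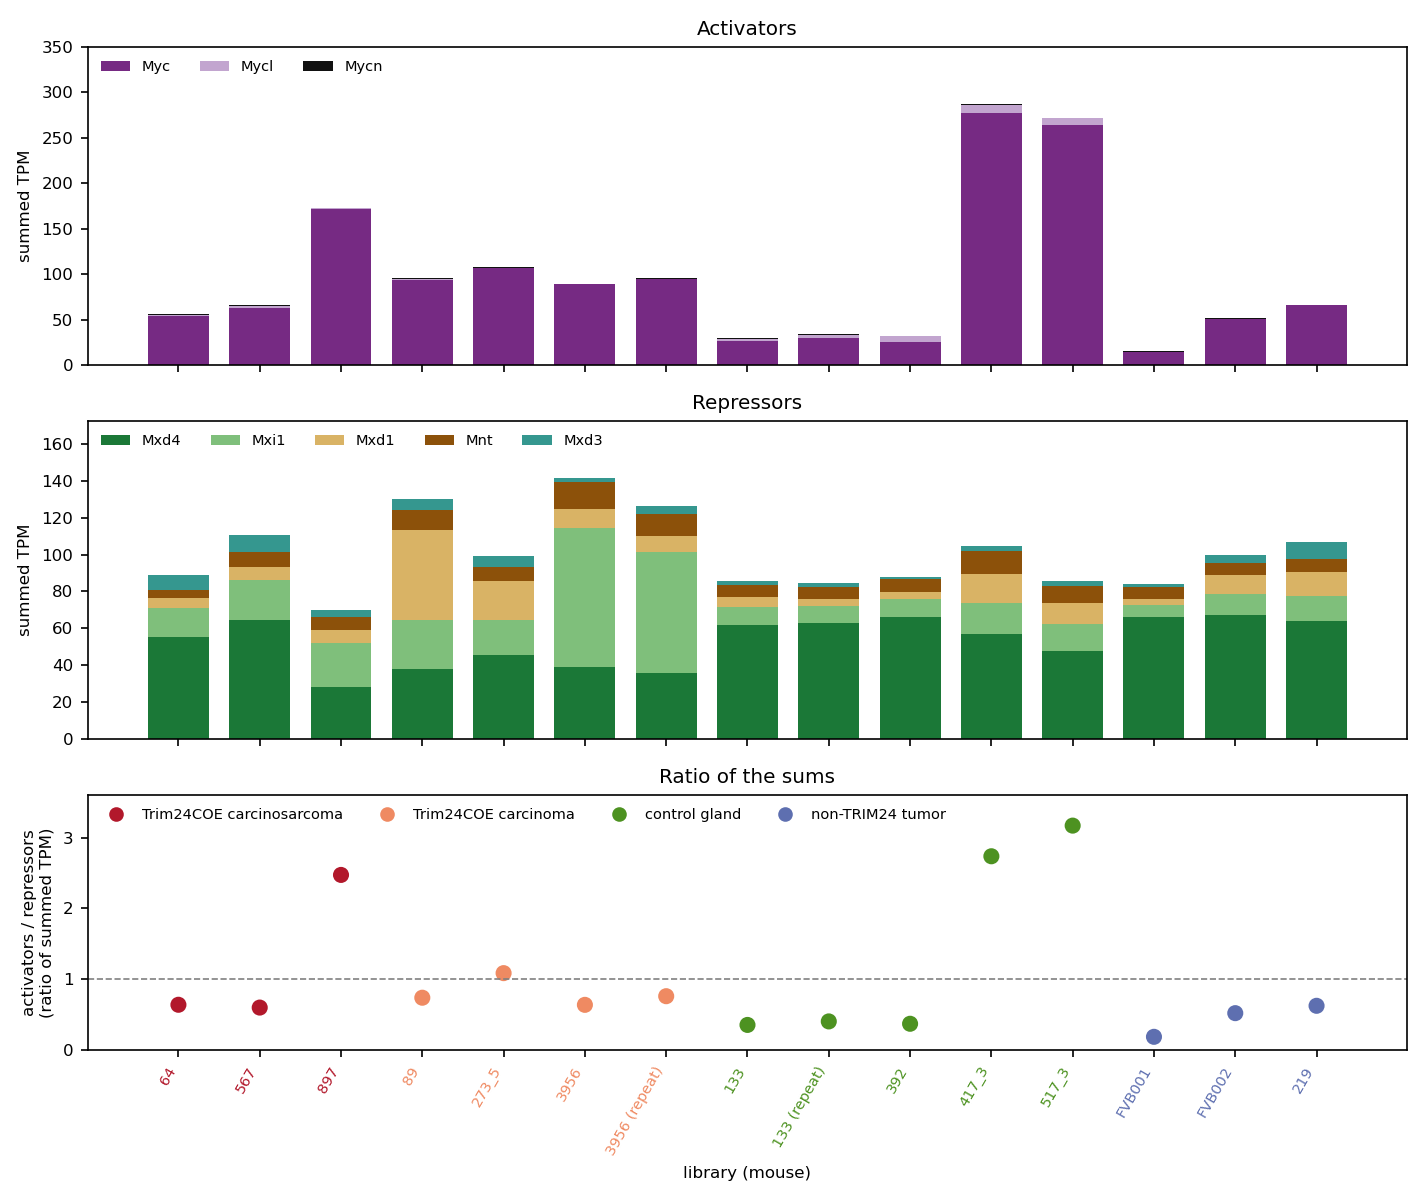
Stacked bars give the summed TPM of the activators Myc, Mycl and Mycn (top) and of the repressors Mxd4, Mxi1, Mxd1, Mnt and Mxd3 (middle) in each library, and points give the ratio of the sums (bottom; the dashed line is a ratio of 1). The activator sum varies with Myc, with ratios above 2 in glands 417_3 and 517_3 and carcinosarcoma 897, while Mxd1 is widest in carcinoma 89 and Mxi1 in carcinoma 3956.

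The genes around the family were taken as lists, and their counts in Trim24COE tumors against glands stand beside 1210 genes called higher and 1387 called lower of 15196 tested (17.1% in all). The network partner Mlx, which pairs with some MXD proteins, with MNT and with the glucose-sensing MONDO proteins, rose in the Trim24COE tumors. It was at 36.5, 45.1 and 35.7 TPM in the carcinosarcomas, 32.1, 34.1 and 34.0 in the carcinomas and 24.2, 19.7, 22.4 and 19.0 in the glands, with no overlap. The log2 fold change was 0.74 (SE 0.18, adjusted p = 0.0196). It was the 1 of 5 partners called there, and the median log2 fold change of the 5 was -0.58 against -0.04 for all genes tested. In the metaplastic carcinosarcomas alone against glands, where 23% of all genes were called, Mlxip, which encodes MONDOA, fell by 1.65 on the log2 scale (adjusted p = 0.0203, limma). Mlxipl, which encodes the carbohydrate response factor ChREBP of fat and liver, was at 98.3 and 34.2 TPM in the fat-rich glands, 2.05 and 1.36 in the other glands and 0.22 to 14.8 in the Trim24COE tumors, with no call.

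Of 17 cofactors of MYC and of the MXD and MNT proteins, 1 passed the test between Trim24COE tumors and glands, where 17.1% of all genes did. Hdac2, a histone deacetylase, rose by a log2 fold change of 0.74 (adjusted p = 0.0131), and the median over the list was 0.15. In the metaplastic carcinosarcomas against glands, where 23% of all genes were called, Sin3b, a corepressor that MXD proteins bind, also rose (1.05, adjusted p = 0.0258, limma). Of 8 genes for turnover of the MYC protein 3 rose in the Trim24COE tumors and none fell. Aurka, the mitotic kinase that stabilizes N-MYC, rose by 2.29 (adjusted p = 0.00201) and Skp2, the F-box protein of a ubiquitin ligase for MYC, by 1.69 (adjusted p = 0.0195). Aurka was at 14.2 to 42.0 TPM in the tumors and 2.34 to 6.86 in the glands. Aurka and Skp2 are also expressed with the cell cycle.

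Of 22 known MYC targets in metabolism and growth, 3 rose in the Trim24COE tumors against glands and none fell, with a median of 0.63. The share called was near the 17.1% of all genes. Cdk4, a kinase of cell cycle entry, was at 341 to 564 TPM in the 6 tumors and 94.2 to 207 in the glands (log2 fold change 1.59, adjusted p = 0.00472), and Nme1, a nucleoside diphosphate kinase, at 60.01 to 198 against 27.3 to 42.4 (1.64, adjusted p = 0.0105). Of 21 ribosome biogenesis targets 1 rose, the helicase gene Ddx18 (1.00, adjusted p = 0.0311), although 18 of the 21 had positive values and the median was 0.53. Glands 417_3 and 517_3 set the limit here. The mean log2(TPM + 1) of the ribosome biogenesis list was 6.38 and 6.26 in them, 4.87 and 4.90 in glands 133 and 392, 5.62 to 6.33 in the Trim24COE tumors and 4.59 to 5.32 in the non-TRIM24 tumors. The glands with high Myc therefore had ribosome biogenesis genes at or above the level of most tumors.

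Proliferation genes did not follow this order. Their mean log2(TPM + 1) was 4.25 and 4.00 in glands 417_3 and 517_3 and 2.71 and 2.18 in glands 133 and 392, and 4.57 to 5.37 in the Trim24COE tumors, so every Trim24COE tumor lay above every gland. Of 12 such genes 8 rose and none fell against the glands, with a median of 1.73. Plk1, a mitotic kinase, rose by 2.49 (adjusted p = 0.00134) and Cdk1, which drives entry into mitosis, by 2.94 (adjusted p = 0.00174). With the adipocyte markers as a covariate the median of the proliferation list was 1.12, and the medians of the ribosome biogenesis and metabolism lists were -0.31 and -0.05. Adipocyte sums of the Trim24COE tumors lay below those of every gland. These medians thus rest partly on extrapolation, and no test is read from this fit.

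The 8 genes known as repressed by MYC went both ways. In the Trim24COE tumors Cdkn2b, an inhibitor of CDK4 and CDK6, rose by a log2 fold change of 3.59 (adjusted p = 0.00193), with 28.5 to 162 TPM in the tumors and 2.03 to 9.44 in the glands. Pdgfrb, a growth factor receptor of stromal cells, rose by 1.61 (adjusted p = 0.0422). Ndrg2, a differentiation gene, fell by 2.91 on the log2 scale (adjusted p = 0.00877). Fibroblast markers summed to 1493 to 5962 TPM in the Trim24COE tumors other than carcinoma 273_5, where they were at 216, and to 539.6 to 1393 in the glands, and their part in Pdgfrb was not tested. In the non-TRIM24 tumors against glands the median log2 fold change was -0.54 for the ribosome biogenesis list, -0.33 for the metabolism list and 0.09 for the proliferation list, against -0.27 for all genes tested.

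**Figure D5:**
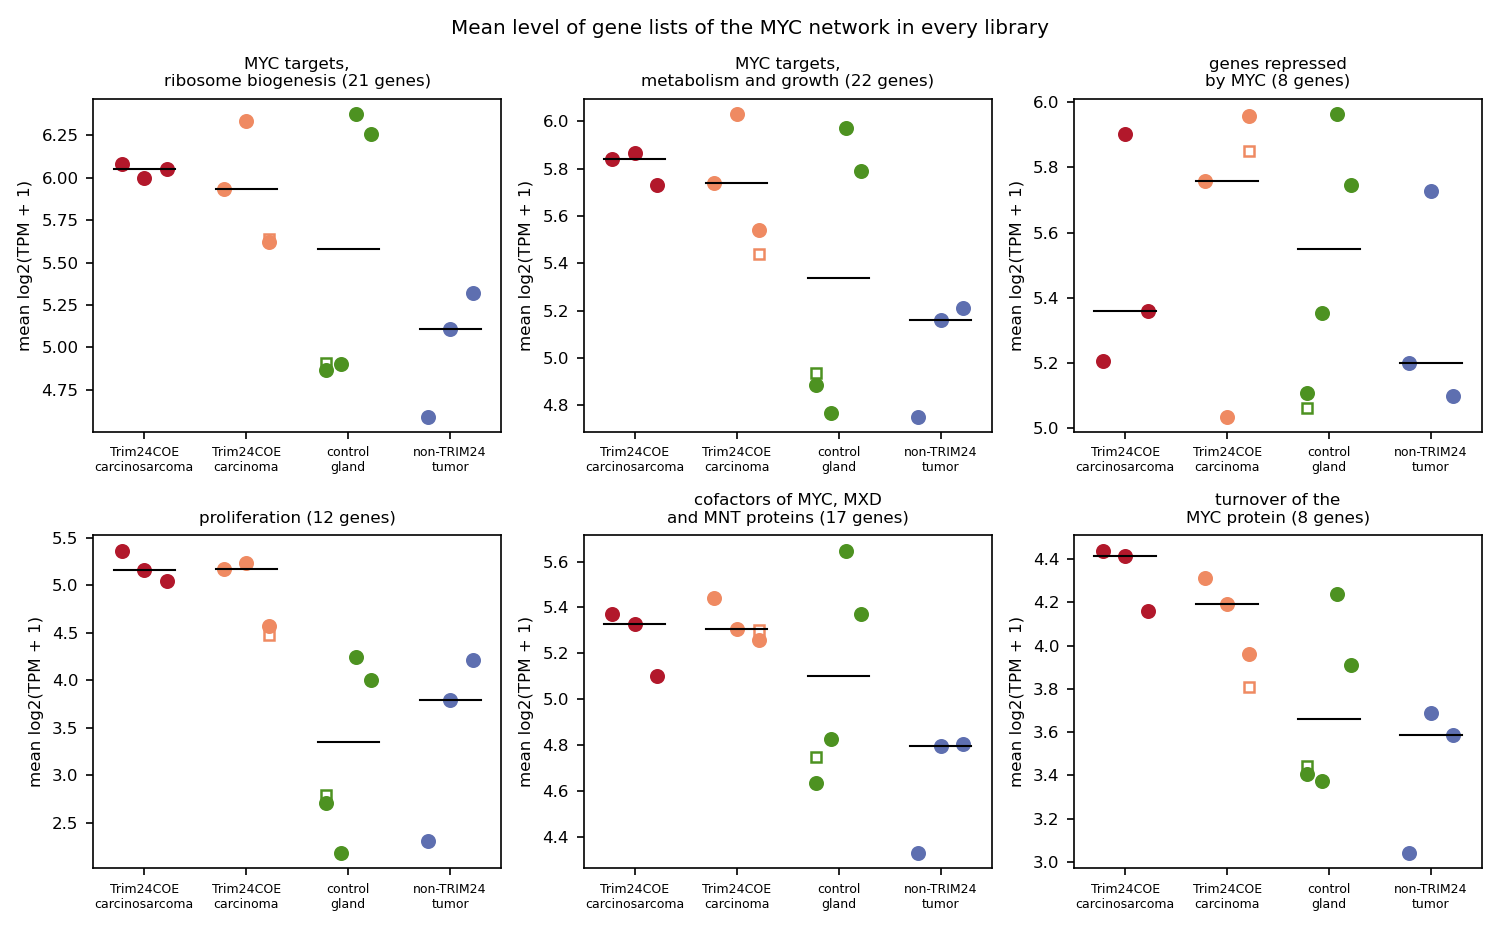
Mean log2(TPM + 1) of 6 gene lists of the MYC network, one point per library in the 4 groups, with filled circles for first libraries, open squares for repeats and bars for group medians. For ribosome biogenesis the control glands span 4.87 to 6.38 and enclose the Trim24COE tumors, whereas for proliferation every Trim24COE tumor is above the highest gland at 4.25.

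The genes next to Myc on its chromosome were read for company in the tumor with the most Myc. Pvt1, a noncoding RNA gene beside Myc, was at 184 TPM in carcinosarcoma 897 and at 7.77 to 25.3 in the other 5 Trim24COE tumors, 6.26 to 14.3 in the glands and 5.86 to 18.7 in the non-TRIM24 tumors. Trib1 and Fam84b, further neighbors, named like Mlxipl after their values were seen, were at 19.6 and 3.05 TPM in this tumor, within the range of the other Trim24COE tumors. In glands 417_3 and 517_3, where Myc was higher still, Pvt1 was at 14.3 and 13.4 TPM and Trib1 at 215 and 178. Thus high Myc went with high Pvt1 in carcinosarcoma 897 and with high Trib1 in the glands. DNA copy number was not analysed here.

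The genes most like each member in pattern were taken by Pearson correlation of log2(TPM + 1) over the 10 first libraries of the first batch, among 13265 named genes. The libraries share groups and tissue makeup, so these values are descriptions. For Myc the nearest was Mapk8, a stress kinase (r = 0.98). For Mycl they were Tmem255b (r = 0.98), H2-Oa, a class II antigen presentation gene of B cells (r = 0.97), and Pcp4 (r = 0.97). Mxd1 was nearest to Krt16, a keratin of stressed epidermis (r = 0.96), then to Gk (r = 0.96) and to Asprv1, an epidermal protease (r = 0.95). For Max they were Dek and Cdca7, known from dividing cells (r = 0.96 for both), and then Med24 (r = 0.95). For Mxd3 they were Depdc1b, also known from dividing cells, Zfp428 and Renbp (r = 0.95 for all). Mxd4 came nearest to Tmem109 (r = 0.94), Mxi1 to Sema3f (r = 0.98), Mnt to Tnk2 (r = 0.96) and Mycn, under the filter, to Tmem38b (r = 0.89).

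The repeat libraries show how far a member differs between the first and the repeat library of a mouse, which lie in different batches. Leaving aside Mycn, Mycl and the Mxd3 value above, the repeat was 0.77 to 1.15 times the first library for gland 133 and carcinoma 3956 together. The high Mxi1 of carcinoma 3956 and the low Myc of gland 133 were present in both of their libraries.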

How the data were processed

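RNA-seq of bulk mouse tissue was analysed from the gene-level TPM values deposited by the authors, 15 libraries of 13 mice. Per the study's methods, reads were aligned with STAR to GRCm38 with GENCODE annotation and quantified with RSEM. The submitters' processing notes name TopHat, Cufflinks, RSEM, DESeq, edgeR and build mm10, without roles. Kit and aligner differ between these sources, so strand use in counting is not settled here. TPM add up to a fixed total and keep no read depth, so the number of mice limits precision and a count test was not possible.

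Values were analysed as log2(TPM + 1) with limma 3.58.1 in R 4.3.3, with a filter of 1 TPM and Benjamini-Hochberg adjustment over all genes tested at 0.05. Comparisons with non-TRIM24 tumors came from 1 fit over all 15 libraries, with batch as a term and the libraries of a mouse linked by duplicateCorrelation, whose value was kept when a mouse was left out. The other fits used only the first libraries of the mice compared. Fits were tested on simulated data. Alternatives were a pseudocount of 0.1 TPM, no filter and a filter of 5 TPM, median ratio scaling, quantile normalization, an adipocyte marker covariate, no batch term, 1 fit over the first batch, libraries of a mouse taken as separate, leaving out each mouse, and, added after the values had been seen, leaving out pairs of glands. Exact permutation tests over mice were two-sided. Members and gene lists were chosen with earlier results of these data known. For each list the text names up to 2 called genes per direction with the lowest p. The p-values measure the spread between mice. Promoter sequences came from RefSeq (GRCm38.p6).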

Additional observations from a re-analysis of the deposited data

Results flagged for a closer look

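In the group of 6 Trim24COE tumors, Mxi1 in carcinoma 3956 stood apart from the rest, with a gap to the next mouse of 0.667 of the range of the group, above Dixon's critical value for 6 samples. It was at 75.3 TPM there and at 15.5 to 26.5 TPM in the other tumors. Pvt1 in carcinosarcoma 897 stood apart in the same way, with a ratio of 0.640 and 184 TPM against 7.77 to 25.3. Chance flags about 1 in 20 groups by this measure.

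Mxd1 was picked out because every metaplastic carcinosarcoma was below and every carcinoma above the mean of the control glands on the log2 scale. The deviations ran from -0.50 to -0.11 in the carcinosarcomas and from 0.39 to 2.50 in the carcinomas. The difference between the classes was -1.66 and its adjusted p in limma was 0.231, so it did not pass the test. Against the glands neither class passed the test, and the carcinosarcomas, at 5.25 to 7.21 TPM, lay inside the range of the glands, 3.82 to 15.4. Their side of the gland mean depends on which glands are averaged, since without the 2 glands poorest in adipocyte markers the carcinosarcomas were higher by 0.42 (adjusted p = 0.289, limma).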

How the results depend on the processing

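The count of members called for Trim24COE tumors against glands was 1. It was 0 with the filter of 5 TPM, which removes Mycl, 2 with median ratio scaling, with quantile normalization and without the 2 glands richest in adipocyte markers, and 1 to 2 when 1 mouse was left out. For metaplastic carcinosarcomas against glands it was 1. It was 0 with no filter, with the filter of 5 TPM and in 1 fit over the first batch, 2 with median ratio scaling and without the 2 glands poorest in adipocyte markers, 3 with the adipocyte covariate and without the 2 richest glands, and 0 to 1 when 1 mouse was left out. For carcinomas against glands it was 0, with 1 under median ratio scaling, quantile normalization, 1 fit over the first batch and without the 2 poorest glands, 2 without the 2 richest, and 0 to 1 when 1 mouse was left out. For non-TRIM24 tumors against glands it was 1, with 0 at the pseudocount of 0.1 TPM, with no filter, with the filter of 5 TPM and with libraries of a mouse as separate, and 0 to 1 when 1 mouse was left out. The sign of Myc in Trim24COE tumors against glands, 0.08, turned to -0.15 with quantile normalization, -1.54 with the adipocyte covariate and -1.59 without the 2 richest glands, and ran from -0.48 to 0.65 when 1 mouse was left out. With the adipocyte covariate in the carcinosarcomas, Myc (-2.65), Mycl (-2.02) and Mxd1 (-1.32) were called lower. Adipocyte sums in the carcinosarcomas lay below those of every gland, so these calls rest on extrapolation. Over all members and comparisons 75 of 852 values changed sign, 29 of them for Max, 20 for Myc and 11 for Mnt, and 2 of the changes came with a call. Median ratio scaling moved the median log2 fold change of all genes from -0.12 to 0.08 for carcinosarcomas against glands and from -0.27 to 0.00 for non-TRIM24 tumors against glands, and in the first of these the calls over all genes went from 1503 higher and 2008 lower to 2411 and 1818. The causes were not tested. No paired analysis was possible because the groups share no mouse. Read depth, which is unknown here, may limit Mycl and Mycn most, since they lie near 1 TPM.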
